A study of Mus musculus with 10 samples.

Results

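The genes described are the nuclear genes of oxidative phosphorylation: the subunits of complexes I to V, cytochrome c and a few assembly factors that share their name stems. They were taken by symbol, with the stems Nduf, Sdha to Sdhd, Uqcr, Cox4i, Cox5, Cox6, Cox7, Cox8 and Atp5, plus Cyc1 and Cycs. Of 29955 genes in the table, 94 had such a symbol and 85 of these had at least 10 counts in every library. The 85 members comprised 40 of complex I, 6 of complex II, 8 of complex III, cytochrome c, 14 of complex IV and 16 of complex V, and 6 of them are assembly factors. All 85 were among the 12282 genes tested.

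RNA-seq was done on a mouse line of Philadelphia chromosome-positive acute lymphoblastic leukaemia, driven by the p185 form of the fusion kinase BCR-ABL1. Dasatinib blocks the ABL and SRC kinases. Cells that grew out in dasatinib were sampled at the 16x IC90 dose step (3 libraries: A, B and C) and at the 1x IC90 step (3 libraries: A, B and C). A line carried in the solvent DMSO to step 16x and one carried to step 1x gave 1 library each, and the untreated parental line gave 2 (A and B). All 10 share BCR-ABL1 and descend from 1 cell line, so they show that line and not the disease at large. The labels do not say whether the dasatinib lines were in drug or had recovered in drug-free medium when RNA was taken. The parental and both DMSO libraries are called drug-free below.

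The respiratory chain takes electrons from NADH through complex I, or from succinate through complex II, and hands them by way of ubiquinone, complex III and cytochrome c to complex IV, which reduces oxygen. Complexes I, III and IV pump protons across the inner mitochondrial membrane, and complex V, the ATP synthase, makes ATP as the protons flow back. Core subunits of complexes I, III, IV and V are also encoded by mitochondrial DNA, while every subunit of complex II is nuclear, and NRF1, the ETS factor GABP and YY1 are known to bind promoters of nuclear subunit genes.

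Promoter windows are shown for members that the results below turn on and that hold 1 of 3 motifs of these factors. Windows ran from 250 bases before to 50 bases after the start of each gene in RefSeq (GRCm38.p6), were searched on both strands, and existed for 72 of the 85 members. The NRF1 letters CGCATGCG stood in the windows of 10 of the 72 members (13.9%) and of 2.07% of all 27025 genes. With a G before and a C after them they stood in 6 (8.33%) against 1.07%. The YY1 letters AAGATGGC, which include the ATG of a start codon, stood in 11 (15.3%) against 3.19% of all genes, and the ETS letters CCGGAAGT in 4 (5.56%) against 4.31%. None of the matches printed here overlaps another motif. Of the 14 members that rose at 16x, 10 had a window, and 4 of these held a match: Ndufa8 the NRF1 letters, Ndufb8 and Ndufs7 the YY1 letters, and Cox8a the ETS letters, 2 times and on the opposite strand. Of these 10, 10% held the NRF1 letters, 20% the YY1 and 10% the ETS letters, against 13.9%, 15.3% and 5.56% of the 72. Ndufs6, whose level went the other way, also held the YY1 letters, and Cox6a1 held the NRF1 letters. A match is a description of these letters and not evidence of binding. In the lines below, capitals mark the matches and all sequences read 5′ to 3′ on the gene's strand.
Ndufa8 (chr2:36049289-36049588, GRCm38.p6, minus strand): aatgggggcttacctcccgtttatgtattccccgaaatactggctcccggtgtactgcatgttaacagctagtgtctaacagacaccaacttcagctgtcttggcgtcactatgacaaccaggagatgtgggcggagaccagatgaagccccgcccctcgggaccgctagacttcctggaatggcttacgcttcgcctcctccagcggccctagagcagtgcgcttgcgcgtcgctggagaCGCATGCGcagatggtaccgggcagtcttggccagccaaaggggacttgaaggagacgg
Ndufb8 (chr19:44555393-44555692, GRCm38.p6, minus strand): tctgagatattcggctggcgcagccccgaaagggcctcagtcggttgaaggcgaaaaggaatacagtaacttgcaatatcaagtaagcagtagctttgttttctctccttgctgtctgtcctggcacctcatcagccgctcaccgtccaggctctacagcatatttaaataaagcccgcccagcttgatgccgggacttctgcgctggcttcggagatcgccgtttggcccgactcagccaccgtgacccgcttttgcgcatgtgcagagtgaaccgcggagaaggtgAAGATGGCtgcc
Ndufs7 (chr10:80249199-80249498, GRCm38.p6, plus strand): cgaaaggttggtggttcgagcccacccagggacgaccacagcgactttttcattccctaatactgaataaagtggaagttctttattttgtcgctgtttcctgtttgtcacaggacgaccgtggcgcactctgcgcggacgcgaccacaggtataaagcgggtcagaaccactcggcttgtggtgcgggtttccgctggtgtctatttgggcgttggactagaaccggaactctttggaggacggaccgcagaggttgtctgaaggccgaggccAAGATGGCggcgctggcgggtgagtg
Cox8a (chr19:7217567-7217866, GRCm38.p6, minus strand): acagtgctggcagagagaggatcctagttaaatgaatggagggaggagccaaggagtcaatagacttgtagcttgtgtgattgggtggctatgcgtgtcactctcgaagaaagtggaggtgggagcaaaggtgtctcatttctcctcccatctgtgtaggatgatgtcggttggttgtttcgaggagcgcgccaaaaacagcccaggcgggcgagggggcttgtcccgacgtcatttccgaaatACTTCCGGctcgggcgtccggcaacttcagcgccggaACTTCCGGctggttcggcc
Ndufs6 (chr13:73328433-73328732, GRCm38.p6, minus strand): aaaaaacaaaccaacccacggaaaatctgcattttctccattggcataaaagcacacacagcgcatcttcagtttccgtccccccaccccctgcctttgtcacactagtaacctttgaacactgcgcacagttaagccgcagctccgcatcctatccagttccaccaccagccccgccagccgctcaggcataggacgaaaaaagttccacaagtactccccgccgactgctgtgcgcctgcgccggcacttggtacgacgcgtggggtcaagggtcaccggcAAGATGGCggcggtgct
Cox6a1 (chr5:115348909-115349208, GRCm38.p6, minus strand): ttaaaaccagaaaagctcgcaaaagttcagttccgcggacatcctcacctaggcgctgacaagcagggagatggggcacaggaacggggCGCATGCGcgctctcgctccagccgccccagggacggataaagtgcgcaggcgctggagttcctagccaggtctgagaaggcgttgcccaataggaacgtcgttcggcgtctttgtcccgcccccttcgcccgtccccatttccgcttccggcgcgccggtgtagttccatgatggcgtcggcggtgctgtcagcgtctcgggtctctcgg

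Levels are given as CPM, the usual scaling of a gene's counts to the size of its library, here after TMM adjustment, and changes between groups come from edgeR's quasi-likelihood test with Benjamini-Hochberg adjustment over all 12282 genes, called at an adjusted p under 0.05. Library totals ran from 29049760 to 45813092 counts, and the members held 1.23% to 1.41% of them. B lineage markers summed to 3070 to 3840 CPM, with Ebf1 between 0.0955 and 0.717 CPM over the 10 libraries. Markers of myeloid cells, mostly Lyz2, summed to 3.63 to 8.22 CPM, and those of T cells and fibroblasts to at most 0.0682 CPM. Erythroid markers, nearly all of it Hbb-b1, summed to 16.4 to 26.6 CPM in dasatinib 16x and 3.83 to 4.53 CPM in dasatinib 1x, against 34.6 CPM in DMSO 16x, 11.5 in DMSO 1x and 4.19 to 4.7 in the parental libraries. Their part in the results was not tested. In bulk RNA a change in some of the cells and a smaller change in all of them cannot be told apart.

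Per kilobase of transcript, the ATP synthase catalytic subunit Atp5b had the highest mean level (1030 CPM per kb), ahead of its partner Atp5a1 (819 CPM per kb). Within the other complexes the highest mean level per kilobase was that of Ndufb8 in complex I (175 CPM per kb), Sdhb in complex II (176), Uqcrh in complex III (194) and Cox6a1 in complex IV, with Cox8a the same to 3 digits (425). Cytochrome c, Cycs, had 42.3 CPM per kb. These lengths are of GENCODE vM21 transcripts on GRCm38, while the counts were made on mm9. Across the 10 libraries the members varied little: the ratio of the highest to the lowest CPM had a median of 1.2 over the members and 1.32 over 10875 tested genes with the same minimum of counts. It was over 1.5 in 10 members and over 2 in 4, which were Cox6a2 (4.39), Sdhaf2 (2.38), Atp5k (2.08) and Cox7a1 (2.06).

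By summed CPM, dasatinib 16x lines had slightly more subunit mRNA in every complex than the drug-free lines. Summed over complex I, the subunits reached 2801, 2705 and 2795 CPM in dasatinib 16x and 2613, 2837 and 2669 CPM in dasatinib 1x, against 2519 CPM in DMSO 16x, 2672 in DMSO 1x, and 2598 and 2561 in the parental libraries. Complex II summed to 916, 901.7 and 941.8 CPM in dasatinib 16x and 884.6, 899.9 and 889.9 CPM in dasatinib 1x, against 841.7 CPM in DMSO 16x, 878.1 in DMSO 1x, and 861.4 and 844.5 in the parental libraries. For complex III the sums were 1349, 1328 and 1378 CPM in dasatinib 16x and 1283, 1358 and 1281 CPM in dasatinib 1x, against 1217 CPM in DMSO 16x, 1272 in DMSO 1x, and 1230 and 1207 in the parental libraries. In all 3 complexes the 16x libraries lay above every drug-free library, while at 1x this held for complexes II and III and not for complex I.

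Complex IV summed to 2067, 2013 and 2081 CPM in dasatinib 16x and 1952, 2142 and 1969 CPM in dasatinib 1x, against 1822 CPM in DMSO 16x, 1999 in DMSO 1x, and 1921 and 1874 in the parental libraries. Complex V summed to 6621, 6459 and 6735 CPM in dasatinib 16x and 6408, 6689 and 6415 CPM in dasatinib 1x, against 5538 CPM in DMSO 16x, 6122 in DMSO 1x, and 6187 and 6117 in the parental libraries. By these sums the 16x libraries were above every drug-free library in both complexes. The 1x libraries were so only in complex V, and DMSO 16x was the lowest library in both. Genes with high levels weigh most in a sum. The lead of dasatinib 16x B over DMSO 1x rested on Cox6a1 in complex IV (271 against 220 CPM). In complex V it rested on Atp5a1 (2160 against 1860 CPM) and Atp5b (1980 against 1920 CPM). The lead of dasatinib 1x A and C over DMSO 1x in complex V rested on the same genes. The median over subunits of log2 CPM, relative to each subunit's mean over the 10 libraries, overlapped between the groups. In complex IV it was -0.01 in dasatinib 16x B, against 0.04 in DMSO 1x. In complex V it was 0 in dasatinib 16x B and in dasatinib 1x A and C, against 0.01 in DMSO 1x. In complexes I, II and III the 16x medians lay above every drug-free one. Cycs did not separate the groups, at 134, 129 and 140 CPM in dasatinib 16x and 135, 139 and 129 CPM in dasatinib 1x, against 128 CPM in DMSO 16x, 126 in DMSO 1x, and 131 and 130 in the parental libraries. Over all subunits the mean sum was 13830 ± 271 CPM in dasatinib 16x (SD, n = 3) and 13560 ± 435 CPM in dasatinib 1x (SD, n = 3), against 12700 ± 444 CPM in the drug-free libraries (SD, n = 4), and the sums carry no test.

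**Figure D1:**
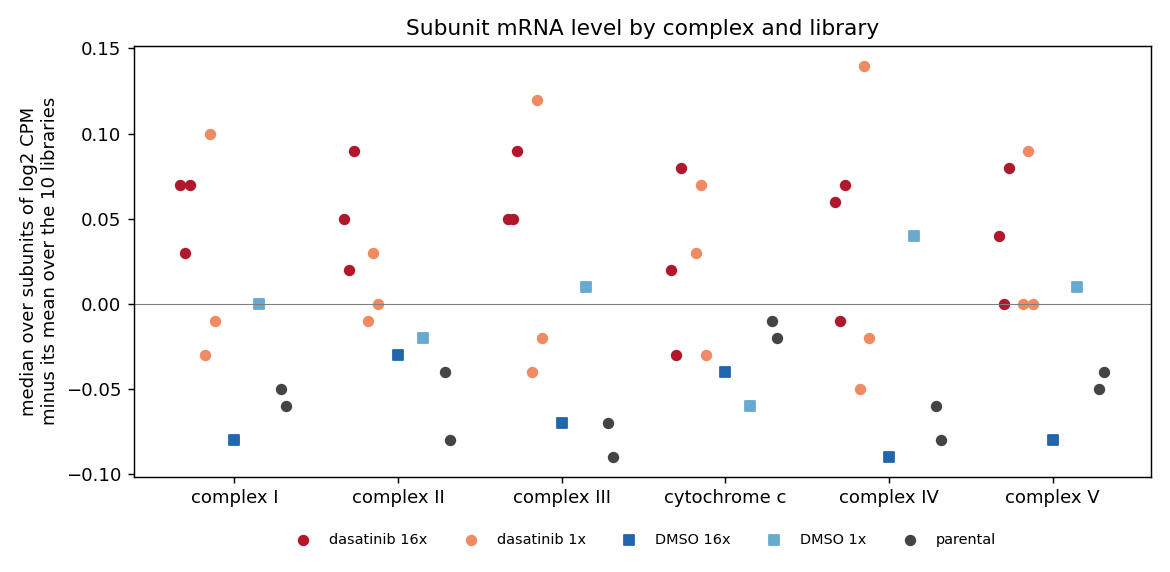
Median over the subunits of each complex of log2 CPM minus the subunit's mean over the 10 libraries (vertical axis), by complex (horizontal axis), 1 point per library coloured by group, squares for the DMSO lines. Dasatinib 1x B is the highest library in complexes I, III, IV and V, and DMSO 16x is the lowest in complexes I, IV and V.

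Dasatinib 1x B was the highest of the 10 libraries in 35 of 85 members, and DMSO 16x the lowest in 35 of 85. The excess of dasatinib 1x B went with transcript length: relative to the mean of the other 1x libraries, its median deviation on the log2 scale was 0.16 for members under 1000 bases and 0.05 for longer ones, and 0.11 and 0 for all genes of those lengths with a mean of at least 100 counts. Without this library the members' median log2 change was 0.02 in dasatinib 1x against drug-free and 0.06 in dasatinib 16x against dasatinib 1x, where it was 0.06 and 0.03 with it. Between dasatinib 16x and drug-free the members' median log2 change was 0.1 both under and above 1000 bases, while all genes had 0.05 and 0.

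Dasatinib 16x against drug-free asks what differs in the lines at the last dose step. Of 85 members 14 rose and 0 fell (16.5%), where 16.1% of all tested genes were called, 7.79% higher and 8.33% lower. The members' median log2 change was 0.1, against 0 for all genes, and 73 of 85 (85.9%) had a positive change, against 49.1% of all genes. In 33 members (38.8%) all 3 dasatinib 16x libraries lay above all 4 drug-free ones, and in 1, Ndufs6, below, where 14.3% of all genes lay above and 14% below. The shares of all genes are not matched to the members' levels, and most members had a mean of 24 to 253 CPM. Apart from Cox6a2, the 14 that rose changed by 1.08-fold to 1.29-fold. They came from every complex: 5 of complex I, 2 of complex II, 3 of complex III, 2 of complex IV and 2 of complex V. The calls of complex V, like those of Sdhb in complex II and Uqcrfs1 in complex III, seldom held when single libraries were left out, as given below.

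**Figure D2:**
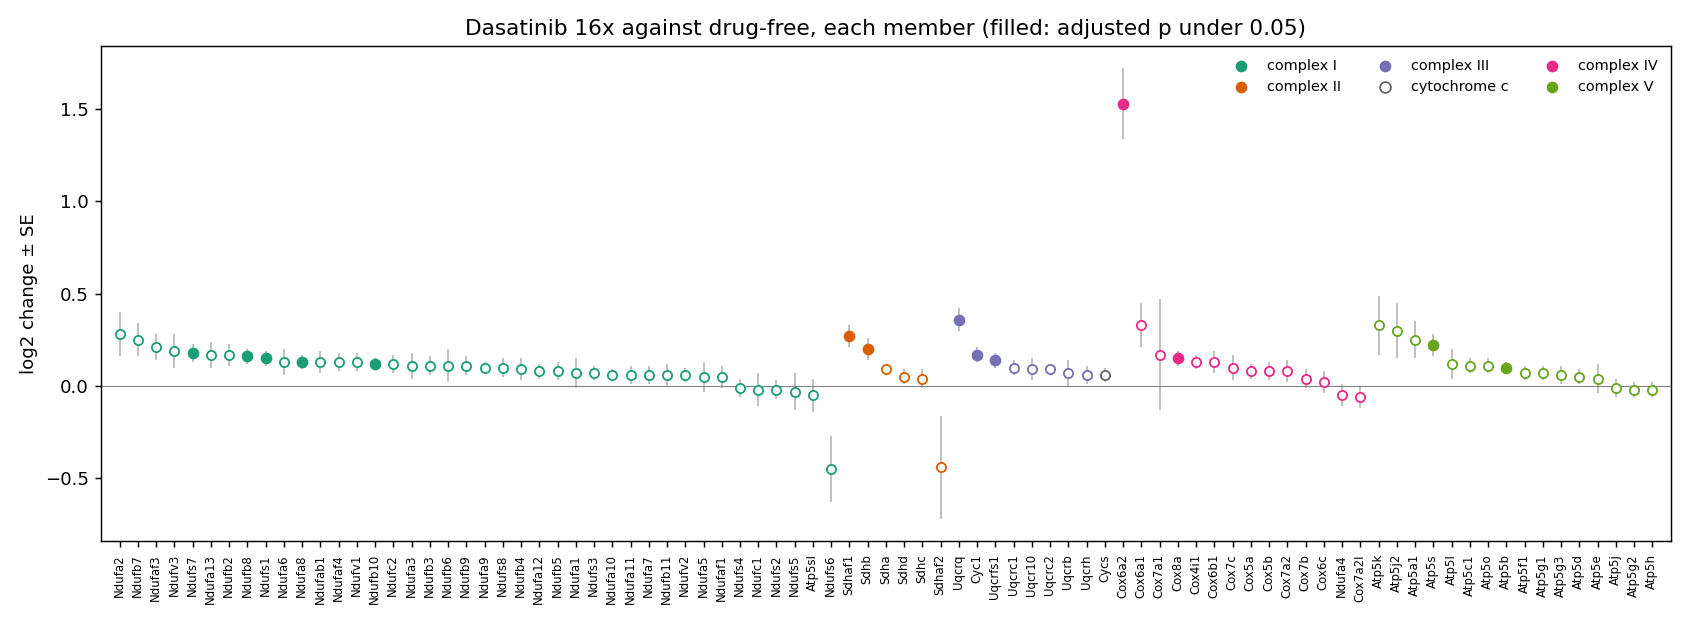
Log2 change of each of the 85 members in dasatinib 16x against drug-free (vertical axis, bars show the SE), ordered by complex and size along the horizontal axis, with filled points for an adjusted p under 0.05. Most points lie between 0 and 0.3, with Cox6a2 far above at 1.53 and Ndufs6 and Sdhaf2 below -0.4 without a call.

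In complex I, 2 of the 7 core subunits and 3 of the 29 accessory subunits rose. Ndufs1, an iron-sulfur core subunit of the arm that receives electrons, had 170, 156 and 170 CPM in dasatinib 16x, against 142 CPM in DMSO 16x, 146 in DMSO 1x, and 154 and 152 in the parental libraries (log2 change 0.15, SE 0.04, adjusted p = 0.033). Ndufs7, the core subunit that carries the last iron-sulfur cluster before ubiquinone, had 88.7, 84.3 and 87.4 CPM, against 71.5 CPM in DMSO 16x, 78.1 in DMSO 1x, and 79.1 and 77.2 in the parental libraries (log2 change 0.18, SE 0.05, adjusted p = 0.0279). For both, the groups did not overlap, and DMSO 16x was the lowest library. The accessory subunits Ndufb8 (log2 change 0.16, adjusted p = 0.0246), Ndufb10 (0.12, adjusted p = 0.0315) and Ndufa8 (0.13, adjusted p = 0.0408) rose without overlap as well. Ndufb8 had 127, 122 and 132 CPM in dasatinib 16x, against 114 CPM in DMSO 16x, 115 in DMSO 1x and 113 in each parental library, so the drug-free lines hardly differed among themselves.

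In complex II the subunit Sdhb, which holds the iron-sulfur clusters, and the factor Sdhaf1, needed to insert them, rose together. Sdhaf1 had 22, 22.2 and 23 CPM in dasatinib 16x, against 18.1 CPM in DMSO 16x, 19.8 in DMSO 1x, and 18.3 and 17.9 in the parental libraries (log2 change 0.27, SE 0.06, adjusted p = 0.0117). Sdhb had 222, 200 and 224 CPM, against 170 CPM in DMSO 16x, 194 in DMSO 1x, and 194 and 196 in the parental libraries (log2 change 0.2, SE 0.06, adjusted p = 0.047). Dasatinib 16x B stood only just above the parental range in Sdhb. The flavin subunit Sdha (log2 change 0.09, adjusted p = 0.057) and the membrane anchor Sdhd (0.05, adjusted p = 0.443) were not called.

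In complex III all 8 members had a positive change and 3 rose. Uqcrq, a small subunit near the ubiquinone site, had 130, 121 and 126 CPM in dasatinib 16x, against 95.3 CPM in DMSO 16x, 102 in DMSO 1x, and 98 and 96 in the parental libraries (log2 change 0.36, SE 0.06, adjusted p = 0.00625). Cyc1, the cytochrome c1 subunit that passes electrons to cytochrome c, had 232, 238 and 243 CPM, against 198 CPM in DMSO 16x, 212 in DMSO 1x, and 222 and 214 in the parental libraries (log2 change 0.17, SE 0.04, adjusted p = 0.0194). Both were clear of the drug-free range, by more in Uqcrq than in Cyc1. The Rieske iron-sulfur protein Uqcrfs1 also rose (log2 change 0.14, adjusted p = 0.0475), while the core protein Uqcrc1 was not called (0.1, adjusted p = 0.116).

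In complex IV the change in Cox6a2 was the largest of any member. Cox6a2, the isoform of subunit 6a known from heart and skeletal muscle, had 9.14, 10 and 7.28 CPM in dasatinib 16x and 3.73, 5.31 and 5.3 CPM in dasatinib 1x, against 2.28 CPM in DMSO 16x, 3.01 in DMSO 1x, and 3.17 and 3.71 in the parental libraries. The 16x libraries were clear of all others, and the lowest 1x library was next to the highest parental one. Against drug-free, 16x was higher by 1.53 on the log2 scale (2.89-fold, SE 0.19, adjusted p = 0.00135), and 1x by 0.65 (SE 0.19, adjusted p = 0.125), which was not called. Cox8a, a small subunit of complex IV, also rose at 16x, with 244, 252 and 248 CPM, against 219 CPM in DMSO 16x, 235 in DMSO 1x, and 225 and 214 in the parental libraries (log2 change 0.15, SE 0.04, adjusted p = 0.0316). Of the rest, Cox4i1, a regulatory subunit, stood nearest to a call (log2 change 0.13, adjusted p = 0.0543).

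In complex V the catalytic subunit Atp5b and Atp5s, known as coupling factor B, rose. Atp5b had 2070, 1980 and 2070 CPM in dasatinib 16x, against 1910 CPM in DMSO 16x, 1920 in DMSO 1x, and 1880 and 1870 in the parental libraries (log2 change 0.1, SE 0.03, adjusted p = 0.0434). Atp5s had 11, 12 and 11.5 CPM, against 10 CPM in DMSO 16x, 9.47 in DMSO 1x, and 10.2 and 9.92 in the parental libraries (log2 change 0.22, SE 0.06, adjusted p = 0.0443). The groups did not overlap in either gene. Atp5o (log2 change 0.11, adjusted p = 0.111) and the genes of the membrane ring, Atp5g1 (0.07, adjusted p = 0.302), Atp5g2 (-0.02, adjusted p = 0.837) and Atp5g3 (0.06, adjusted p = 0.477), were not called.

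The count of 14 fell by over 1.5 times when any library but DMSO 16x was left out. Leaving out a 16x library gave 5 (A), 9 (B) or 2 (C), where 8.45%, 11.6% and 8.02% of all genes were called. Leaving out a 1x library gave 7 (A), 9 (B) or 6 (C), where 12.2%, 12.6% and 12% of all genes were called. The members' count was 9 when DMSO 1x was dropped (10.7% of all genes) and 18 when DMSO 16x was (22.6%). It was 6 without parental A (13.3%) and 6 without parental B (13.9%). Cox6a2 and Uqcrq stayed called in all 10 of these fits. Sdhaf1 (adjusted p = 0.0516) and Cyc1 (adjusted p = 0.0745) did so in all but the one without dasatinib 16x C. Most other calls were less stable: Ndufs7 stayed called in 7 of the 10 fits, Ndufb8 in 5, and Cox8a and Ndufs1 in 4. Ndufb10 and Ndufa8 stayed called in 3, Sdhb and Atp5b in 2, and Atp5s in 0. Uqcrfs1 stayed called only in the fit without DMSO 1x.

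**Figure D3:**
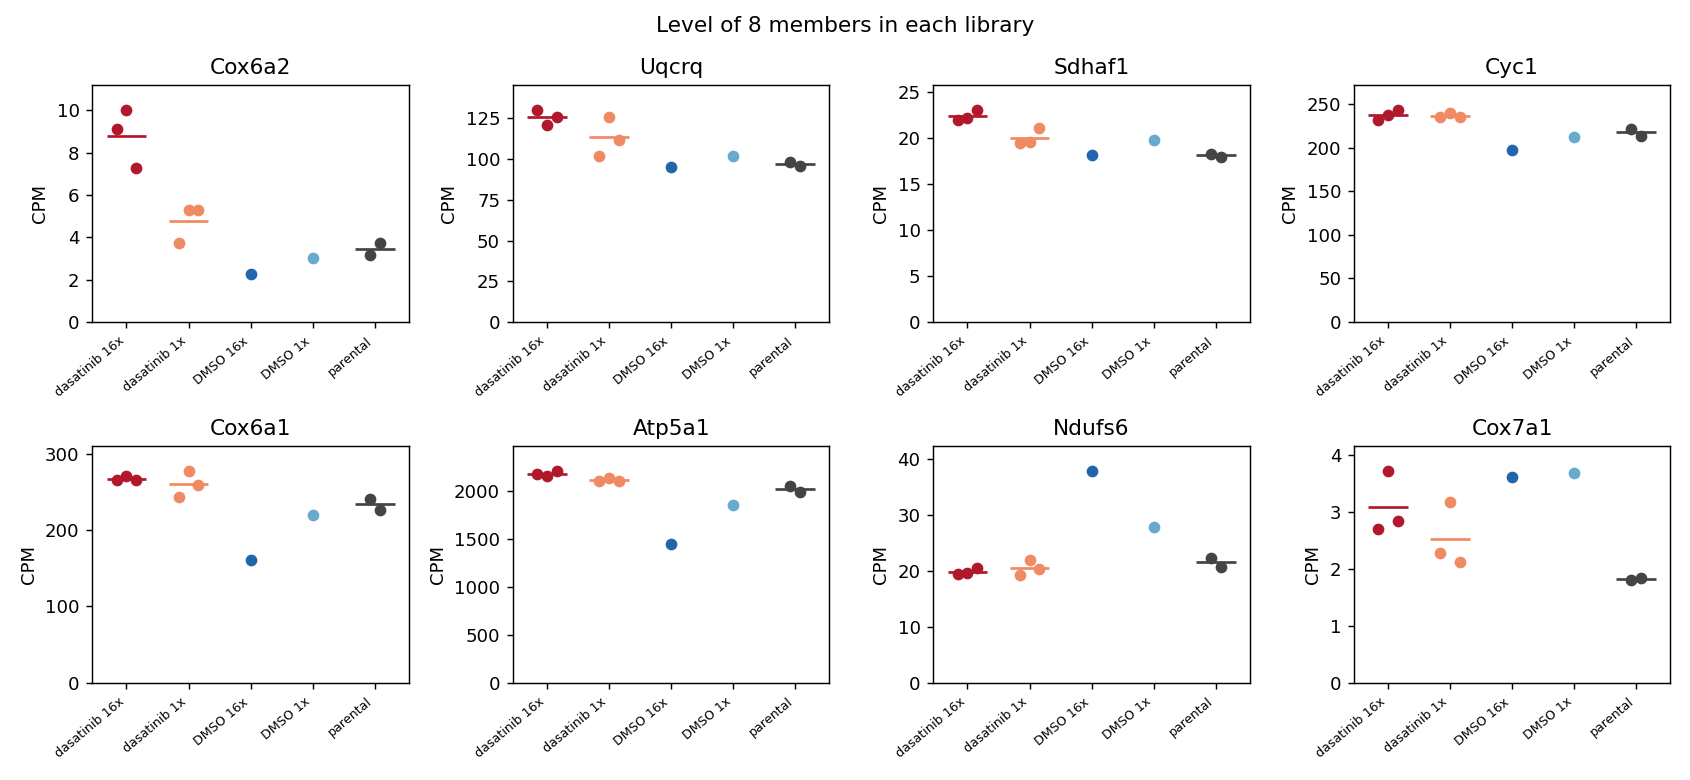
CPM (vertical axes, from 0) of 8 members in each library, by group, with a line at the mean of groups with over 1 library. Cox6a2, Uqcrq and Sdhaf1 have their highest means in dasatinib 16x, Cyc1 is level in both dasatinib groups and above the others, and the DMSO 16x library is low in Cox6a1 and Atp5a1 and high in Ndufs6.

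Dasatinib 1x against drug-free asks what differs at the first dose step. Of 85 members 0 were called by edgeR, where 1.96% of all genes were, 0.822% higher and 1.14% lower. At an unadjusted p under 0.05 by edgeR there were 19. Counts at an unadjusted p, here and below, have no share of all genes beside them and are not read as results. DESeq2 called 6 members (6.95% of all genes) and limma-voom 0 (1.22%), and the edgeR count was 2 without DMSO 16x (4.22%). The members' median log2 change was 0.06 (0.02 without dasatinib 1x B and 0.04 without parental B), with 71 of 85 positive (83.5%, against 48.3% of all genes). In 22 members (25.9%) all 1x libraries lay above all drug-free ones, as in 12.5% of all genes. Cyc1 had the smallest p, with 235, 240 and 235 CPM in dasatinib 1x, above all 4 drug-free libraries (log2 change 0.16, SE 0.04, adjusted p = 0.074). In complex I, Ndufb10 (log2 change 0.11, adjusted p = 0.115) and Ndufaf3, an assembly factor (0.24, adjusted p = 0.116), stood closest to a call. Uqcrq reached 126 CPM in dasatinib 1x B but 102 and 112 CPM in A and C, and overlapped with DMSO 1x (log2 change 0.22, adjusted p = 0.127). In complex V, Atp5s (log2 change 0.22, adjusted p = 0.113) and Atp5o (0.13, adjusted p = 0.148) had the smallest p. Cox5a of complex IV (log2 change 0.11, adjusted p = 0.183) and Sdha of complex II (0.07, adjusted p = 0.217) were not called either. This comparison shares its drug-free libraries with the one at 16x. Set against the parental libraries alone, in a fit of 5 groups, 0 members were called at 1x (29 at an unadjusted p under 0.05 by edgeR), where 5.76% of all genes were, 2.88% in each direction, and at 16x 23 rose and 0 fell, where 26.5% were, 13.7% higher and 12.8% lower.

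Dasatinib 16x against dasatinib 1x asks what changed between the dose steps. Of 85 members 0 were called by edgeR, where 2.13% of all genes were. At an unadjusted p under 0.05 by edgeR there were 4. DESeq2 called 2 members (6.55% of all genes) and limma-voom 0 (1.82%), and the edgeR count was 2 without DMSO 16x (8%). The median log2 change was 0.03, and leaving out dasatinib 1x A gave 0, leaving out dasatinib 1x B 0.06. Cox6a2 was 0.88 higher on the log2 scale (SE 0.21, adjusted p = 0.0669) and Ndufa8 0.16 higher (SE 0.04, adjusted p = 0.0745), each with all 16x libraries above all 1x ones. Ndufa8 had 72.9, 72.8 and 72.6 CPM in dasatinib 16x, against 63.8, 67.6 and 64 CPM in dasatinib 1x. Ndufa4, a complex IV subunit despite its name, had 137, 139 and 145 CPM in dasatinib 16x, against 149, 165 and 145 CPM in dasatinib 1x (log2 change -0.13, adjusted p = 0.34). In complexes II, III and V, Sdhaf1 (log2 change 0.16, adjusted p = 0.231), Sdhd (0.08, adjusted p = 0.469), Uqcrq (0.15, adjusted p = 0.342), Uqcrc1 (0.08, adjusted p = 0.419), Atp5h (-0.06, adjusted p = 0.622) and Atp5g2 (-0.04, adjusted p = 0.803) were not called.

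Subunits 6a and 7a of complex IV exist in forms named for liver and muscle. Cox6a2 made up 3.33%, 3.55% and 2.67% of Cox6a1 and Cox6a2 counts in dasatinib 16x and 1.51%, 1.88% and 2% in dasatinib 1x, against 1.39% in DMSO 16x, 1.35% in DMSO 1x, and 1.3% and 1.62% in the parental libraries. The lowest 16x share had a 95% Clopper-Pearson interval of 2.38% to 2.98%, above the highest share outside the 16x libraries (2%, 1.74% to 2.29%). Intervals cover counting error only. Cox6a1 itself, the form found in most tissues, was at 265, 271 and 265 CPM in dasatinib 16x, and held most of the pair's counts in every library. It was lower in DMSO 16x (161 CPM) than in the parental libraries (241 and 226), so the share there moves with both genes. Close paralogs may share reads, and the sources used here do not say how the counting treated them.

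Cox7a1, the muscle form of subunit 7a, followed another pattern, with 2.7, 3.72 and 2.84 CPM in dasatinib 16x and 2.28, 3.17 and 2.12 CPM in dasatinib 1x, against 3.62 CPM in DMSO 16x, 3.69 in DMSO 1x, and 1.81 and 1.84 in the parental libraries. It was lowest in the parental line and in the DMSO lines about level with the highest dasatinib library, and it was not called in dasatinib 16x against drug-free (log2 change 0.17, adjusted p = 0.752). Its share of Cox7a1 and Cox7a2 counts ran from 1.55% in parental A to 3.44% in DMSO 16x. Other tissue forms were nearly silent: Cox4i2, known from lung, made up 0.0201% to 0.181% of Cox4i counts, and Cox6b2, known from testis, had 0 to 4 counts.

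**Figure D4:**
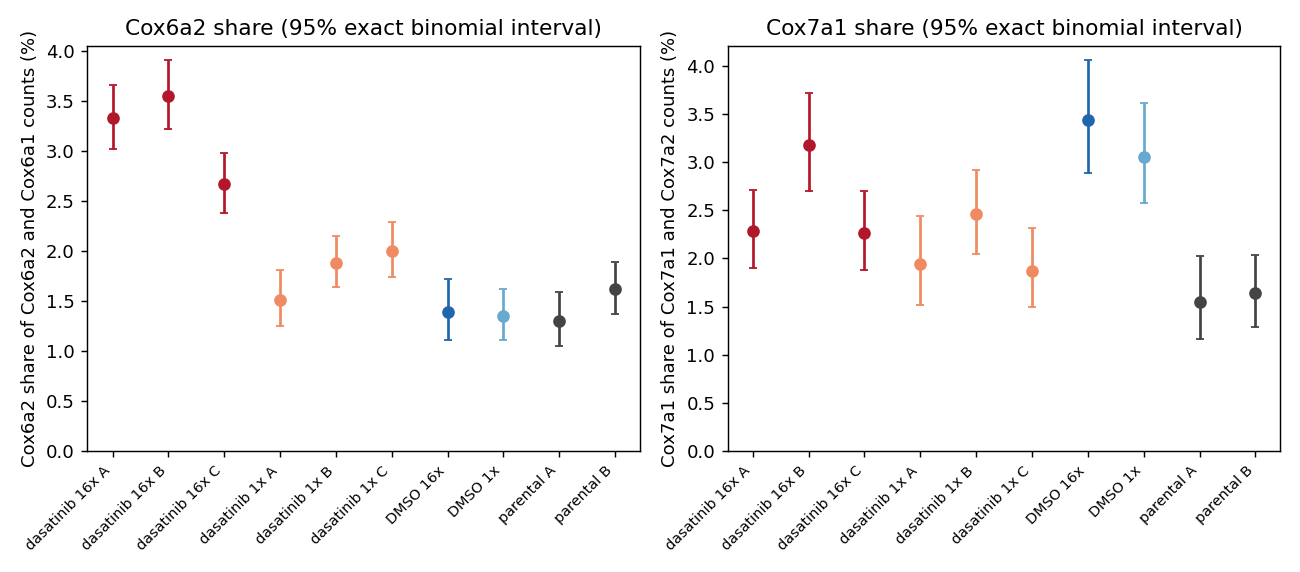
Share of the muscle isoform in the counts of the isoform pair (vertical axes, percent), for Cox6a2 (left) and Cox7a1 (right) in each library, with 95% exact binomial intervals. The Cox6a2 share lies between 2.67% and 3.55% in the 16x libraries, above every other library, and the Cox7a1 share is highest in the DMSO libraries and dasatinib 16x B.

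The 9 symbols left out by the count minimum were Cox4i2, Cox6b2, Cox7b2, Cox8b, Cox8c, Ndufa4l2, Ndufaf2, Uqcr and Uqcr11. Cox7b2 and Cox8c had 0 counts in all libraries. Just outside the minimum stood Cox4i2 with 2 to 17 counts and Uqcr with 3 to 14, and just inside stood Sdhaf2 with 22 to 60 counts and Cox7a1 with 53 to 152. Uqcr and Uqcr11, with 0 to 3 counts, both matched one RefSeq gene, so the level of that complex III subunit is not reported. Sdhaf2, an assembly factor that helps attach the flavin to Sdha, had 0.967, 0.686 and 1.07 CPM in dasatinib 16x, against 0.777 CPM in DMSO 16x, 1.09 in DMSO 1x, and 1.64 and 1.43 in the parental libraries (log2 change -0.44, SE 0.28, adjusted p = 0.325).

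The DMSO lines, carried without drug, differed from the parental line in these genes as well. In DMSO 16x against parental 8 members rose and 9 fell (20%), where 30.9% of all genes were called (14.7% higher and 16.2% lower), in a fit of 5 groups that takes the single DMSO library to vary like the replicated groups. Without parental A or parental B the count of 17 was 10 or 9, where 22.4% or 21.2% of all genes were called. The 3 members on chromosome 5 (Cox6a1, Atp5j2 and Atp5k) and the 2 on chromosome 18 (Atp5a1 and Ndufa2) all fell, with a median log2 change of -0.53. Of all tested genes on chromosome 5, 516 of 736 were called lower and 25 higher, and on chromosome 18, 212 of 293 lower and 11 higher. The chromosomes' medians were -0.47 and -0.51, against -0.01 to 0.08 for the other chromosomes. The members thus shifted as their whole chromosomes did, and of the 80 members elsewhere 8 rose and 4 fell. When the genes of these chromosomes were left out of the scaling and the fit, 6 of the 80 rose and 6 fell. Of all genes, 25.2% were called in this alternative, which was chosen after seeing the data.

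**Figure D5:**
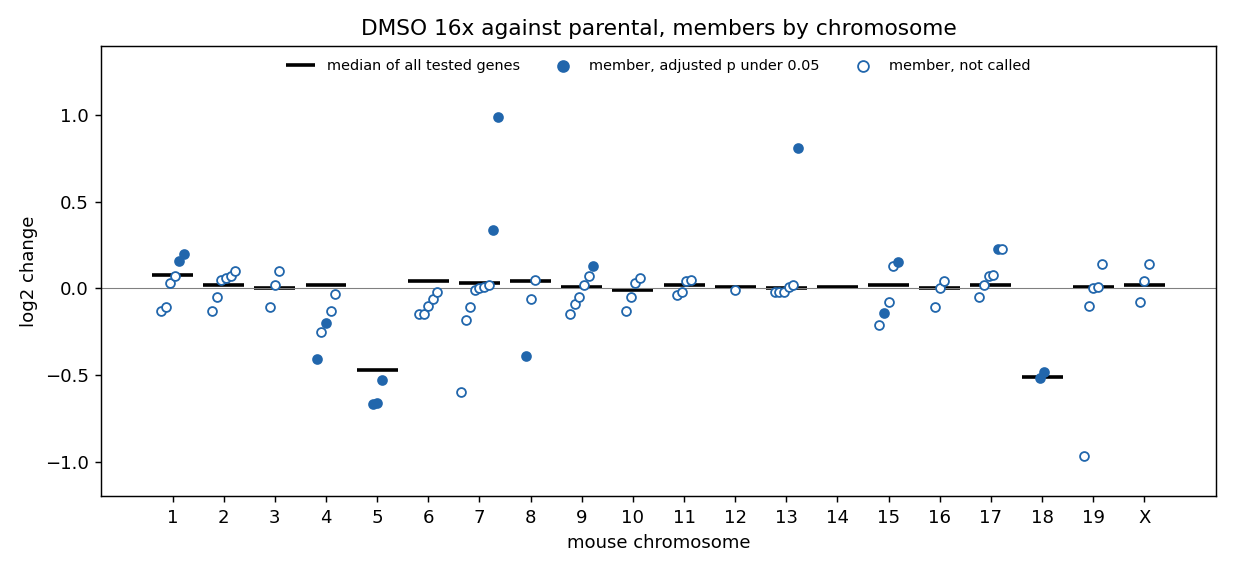
Log2 change of each member in DMSO 16x against parental (vertical axis) by mouse chromosome (horizontal axis), filled for an adjusted p under 0.05, with a black bar at the median of all tested genes of the chromosome. On chromosomes 5 and 18 the bars lie at -0.47 and -0.51 and the members with them, while the other bars lie near 0.

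Atp5a1, the alpha subunit that holds the ATP synthase head together with Atp5b, showed this in its levels: 2180, 2160 and 2210 CPM in dasatinib 16x and 2110, 2140 and 2110 CPM in dasatinib 1x, against 1450 CPM in DMSO 16x, 1860 in DMSO 1x, and 2050 and 1990 in the parental libraries. Cox6a1 had 265, 271 and 265 CPM in dasatinib 16x and 243, 277 and 259 CPM in dasatinib 1x, against 161 CPM in DMSO 16x, 220 in DMSO 1x, and 241 and 226 in the parental libraries. DMSO 16x was far below all others in both genes, and DMSO 1x was the next lowest. In DMSO 16x against parental, Atp5a1 fell by 0.48 on the log2 scale (SE 0.04) and Cox6a1 by 0.53 (SE 0.07). All 5 members of these chromosomes lay above the drug-free range at dasatinib 16x, and 0 of 5 were called in that comparison, where they had a median log2 change of 0.3.

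Ndufs6, an accessory subunit of complex I on chromosome 13, went the other way. It had 19.4, 19.7 and 20.5 CPM in dasatinib 16x and 19.2, 22 and 20.4 CPM in dasatinib 1x, against 37.9 CPM in DMSO 16x, 27.8 in DMSO 1x, and 22.4 and 20.8 in the parental libraries. The DMSO lines were the highest, and the dasatinib lines stood at or below the parental level. It rose in DMSO 16x against parental (log2 change 0.81, SE 0.09, adjusted p = 3.22e-05) and in DMSO 1x against parental (0.37, SE 0.09, adjusted p = 0.0397). In DMSO 1x against parental 3 members rose and 0 fell, where 6.17% of all genes were called, 3.31% higher and 2.87% lower. The others were Cox7a2l (log2 change 0.23, adjusted p = 0.0123), a factor that joins complexes III and IV, and Ndufv3 (0.33, adjusted p = 0.0411). The count of 3 was 1 without dasatinib 1x C (4.35% of all genes). It was 0 without parental A (1.35%) and 0 without parental B (0.903%).

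Each dasatinib step was also set against its own DMSO line. In dasatinib 16x against DMSO 16x 29 members rose and 4 fell, where 35.7% of all genes were called, 18.9% higher and 16.8% lower, and the members' median log2 change was 0.12. All 5 members of chromosomes 5 and 18 were among those that rose, by 0.59 to 0.83 on the log2 scale, and Ndufs6 fell by 0.93 (SE 0.08, adjusted p = 4.22e-06). Cox6a2 was 1.95 higher (SE 0.27, adjusted p = 0.000121). In dasatinib 1x against DMSO 1x 4 members rose and 2 fell, where 13.5% of all genes were called, 6.86% higher and 6.66% lower. Atp5a1 (log2 change 0.19, adjusted p = 0.00596), Cox6a1 (0.24, adjusted p = 0.0303), Cyc1 (0.16, adjusted p = 0.0296) and Ndufb7 (0.24, adjusted p = 0.0418) rose, and Ndufs6 (-0.44, adjusted p = 0.00596) and Cox7a2l (-0.15, adjusted p = 0.0337) fell. The count of 6 was 2 without dasatinib 1x C (9.76% of all genes) and 3 without either parental library (10.2% each). Without dasatinib 1x B 2 members rose and 4 fell, where 12.3% of all genes were called.

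Whether the step from 1x to 16x differed between the arms was tested as an interaction, dasatinib minus DMSO. It was called higher in 4 members and lower in 1, where 6.74% of all genes were called, 5.37% higher and 1.37% lower. The 4 were Atp5a1 (log2 difference 0.4, SE 0.05, adjusted p = 0.00108), Cox6a1 (0.49, adjusted p = 0.00799), Ndufa2 (0.57, adjusted p = 0.0226) and Atp5j2 (0.63, adjusted p = 0.032), all on chromosomes 5 and 18, and Ndufs6 was lower (-0.49, adjusted p = 0.0346). Without the genes of these chromosomes, an alternative chosen after seeing the data, the count was 0 of 80, where 2.8% of all genes were called. Ndufs6, on chromosome 13, was then not called either. Leaving out single libraries gave 8 (dasatinib 1x B), 2 (dasatinib 1x C) or 3 (either parental library). Of all genes, 5.77%, 4.29%, 4.44% (parental A) and 4.42% (parental B) were called in these fits.

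Other mitochondrial genes were read from lists in dasatinib 16x against drug-free, where 16.1% of all genes were called, 7.79% higher and 8.33% lower. Of 25 other assembly factors of the chain 4 rose and 0 fell (16% called, median log2 change 0.12), among them Ttc19 of complex III (0.35, adjusted p = 0.00261), and Surf1 (0.22, adjusted p = 0.0182) and Cox18 (0.33, adjusted p = 0.0216) of complex IV. Of 18 genes of the citric acid cycle and pyruvate dehydrogenase 7 rose and 0 fell (38.9% called, median 0.12), such as the pyruvate dehydrogenase subunit Dlat (0.21, adjusted p = 0.0226) and citrate synthase Cs (0.11, adjusted p = 0.0246). Of 12 genes of ATP export and coupling 2 rose and 0 fell (16.7% called), the outer membrane channels Vdac2 (0.25, adjusted p = 0.00777) and Vdac3 (0.32, adjusted p = 0.0117). Mitochondrial ribosomal proteins rose in 4 of 72 (5.56%, median 0.06) and cytosolic ones in 3 of 79 (3.8%, median 0.02), with 0 lower in each. In dasatinib 1x against drug-free 0 genes of any of these lists were called.

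Of the regulators of these genes, 1 of 15 tested rose (6.67%, against 7.79% of all genes) and 3 fell (8.33% of all genes) in dasatinib 16x against drug-free (median log2 change -0.08). Esrra, the nuclear receptor ERR alpha that is known to drive oxidative genes in muscle and heart, had 61.5, 58.7 and 59.9 CPM in dasatinib 16x and 54.1, 54.7 and 53.7 CPM in dasatinib 1x, against 39.9 CPM in DMSO 16x, 43.4 in DMSO 1x, and 49.9 and 48.7 in the parental libraries. The groups did not overlap, and at 16x it rose (log2 change 0.4, SE 0.07, adjusted p = 0.00558). The GABP subunits Gabpb2 (-0.25, adjusted p = 0.00845) and Gabpa (-0.16, adjusted p = 0.0122) were among the 3 that fell. Ppargc1a, the coactivator PGC-1 alpha, had 0 counts in all libraries. Only 2 genes of mitochondrial DNA were used, and neither was called: Cytb, the core of complex III, had 1403, 1446 and 1577 CPM in dasatinib 16x, against 1310 CPM in DMSO 16x, 1017 in DMSO 1x, and 1413 and 1651 in the parental libraries, and mt-Nd4 of complex I likewise overlapped between the groups.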

How the data were processed

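The values used are raw counts for each gene in 10 RNA-seq libraries, in a table the authors deposited. The submitters' processing notes name the build mm9 and the tools HTSeq 0.6.1, TopHat2 2.0.12, BWA 0.7.10, SAMtools, Trimmomatic 0.33, CASAVA 1.7.0 and DESeq. The role of each tool and the strand setting are not given in the sources used here. Whether overlapping genes and close paralogs share reads is therefore not known. No per-sample columns were left unused (0).

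Genes were filtered with filterByExpr of edgeR at a minimum count of 10 and scaled by TMM. The 3 main comparisons used edgeR 4.0.16 in R 4.3.3 (robust quasi-likelihood test) over 3 classes (dasatinib 16x, dasatinib 1x, drug-free), with a biological coefficient of variation of 15.3% on 7 residual degrees of freedom. Where a DMSO line stood alone, the 5 groups were fitted separately (7.27% on 5). P-values were adjusted by Benjamini and Hochberg over all 12282 tested genes at 0.05. The dasatinib titles say biological replicate and nothing shows separate cultures for the others, so the spread behind each p-value is that between these samples and may be technical.

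The members, the lists of other mitochondrial genes and the tests were chosen with earlier results of these data known. Named members are, by rule, those called in the main comparisons (the 12 with the smallest p), the 2 with the smallest p and the 1 with the highest level per kilobase in each complex, those called in the interaction, the isoform families, and those at the count minimum; others named were chosen after their values were seen. The names Cox2 and Ptgs2 can denote the same gene, so a row named Cox2 was not used as mitochondrial. Chromosomes, promoters and transcript lengths came from RefSeq GRCm38.p6 and GENCODE vM21, matched by symbol. The NRF1 letters were shortened by 1 base at each end after a first search, and both forms are given. Replicate letters were not used to pair the samples in the main fits. Same-letter libraries of the dasatinib steps correlated at 0.05 to 0.09 in their deviations from the group means. Libraries of different letters correlated at -0.07 to 0.01. The procedure was tested on simulated data. Alternatives were DESeq2 1.42.0, voom of limma 3.58.1, RLE scaling, no filter, other fits and references, a replicate block and leaving out each library.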

Additional observations from a re-analysis of the deposited data

Results flagged for a closer look

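Among the 4 drug-free libraries, 5 members and 1 complex, of 45 values examined in this way, had a single library far from the other 3. Chance alone does this in about 1 in 20 independent values. The members here were named partly from these data and the sums contain them, so that rate gives no expected number for the 45. DMSO 16x was that library for Sdhb (170 CPM, against 194 to 196 in the others), Ndufa4 (134, against 148 to 151), Atp5j2 (71.1, against 110 to 113), Atp5g3 (335, against 362 to 368) and the sum of complex V (5538 CPM, against 6117 to 6187). DMSO 1x was that library for Cox6b1 (117 CPM, against 104). Atp5j2 lies on chromosome 5, whose genes were lower as a whole in DMSO 16x, and complex V includes 3 members of chromosomes 5 and 18.

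The step from 1x to 16x differed between the dasatinib and DMSO arms, by the interaction test of edgeR, in 5 members. The log2 difference, dasatinib minus DMSO, was 0.4 for Atp5a1, 0.49 for Cox6a1, 0.57 for Ndufa2, 0.63 for Atp5j2 and -0.49 for Ndufs6. In each of these genes DMSO 16x was the library farthest from the rest.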

How the results depend on the processing

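No result changed direction past its threshold under any alternative. Members called in dasatinib 16x against drug-free were 14 in the analysis as reported, 9 with no filter (8.92% of all genes), 38 in the fit of 5 groups (36 higher and 2 lower; 37%), 4 with only the libraries of the 2 classes (8.18%), 23 with the parental libraries alone as reference (26.5%) and 30 with the DMSO libraries alone (27 higher and 3 lower; 36.8%). For dasatinib 1x against drug-free the count was 0, against 6 with DESeq2 (6.95%), 24 in the fit of 5 groups (28.1%) and 22 with the DMSO libraries alone (33.8%). For dasatinib 16x against 1x it was 0, against 2 with DESeq2 (6.55% of all genes). It was also 2 in the fit of 5 groups (13.6%) and with only the libraries of the 2 classes (10.3%). The interaction had 5, against 8 with no filter (5.11% of all genes). Without the genes of chromosomes 5 and 18, chosen after seeing the data, dasatinib 1x against DMSO 1x had 3 (6 with them). DMSO 1x against parental then had 1 (3 with them) and the interaction 0 (5 with them). Of all genes, 8.78%, 3.71% and 2.8% were called there, in that order. The causes were not tested.

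Leaving out each library gave 2 to 18 for dasatinib 16x against drug-free, 0 to 2 for 1x against drug-free, 0 to 2 for 16x against 1x, 2 to 7 for 1x against DMSO 1x, 27 to 41 for 16x against DMSO 16x, 0 to 4 for DMSO 1x against parental, 9 to 20 for DMSO 16x against parental and 2 to 8 for the interaction. The share of all genes called moved too: 8.02% to 22.6% for 16x against drug-free, 0.135% to 4.22% for 1x against drug-free. It was 0.326% to 8% for 16x against 1x, 9.76% to 18.1% for 1x against DMSO 1x. It was 31.7% to 38.9% for 16x against DMSO 16x and 0.903% to 11.3% for DMSO 1x against parental. For DMSO 16x against parental it was 21.2% to 36.3%, and for the interaction 4.29% to 9.97%. A DMSO library cannot be left out of its own comparison.

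With the replicate letter as a replicate block, 3 members were called in dasatinib 16x against drug-free (Cox6a2, Sdhaf1 and Uqcrq), where 9.79% of all genes were. In 1x against DMSO 1x 2 members were called (12.4% of all genes) and in the interaction 3 (5.69%). The other counts moved by at most 1.5 times. The letters were not treated as pairs in the main fits, though each dasatinib library correlated best with its own letter. Cox6a2 and Uqcrq were called in dasatinib 16x against drug-free under all 20 alternatives run, with adjusted p of at most 0.0274. The small changes of most members, and the single library of each DMSO line, limit what these counts can show.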

Other observations

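The genes next to Cox6a2, Ndufs6, Ndufb7 and Cox7a1 were read in the same fits, a choice made after their values were seen. Gene order was taken from RefSeq GRCm38.p6. Of the 5 nearest tested genes on each side of Cox6a2 on chromosome 7, 0 were called in dasatinib 16x against drug-free by edgeR, where 16.1% of all genes were. The next tested gene on one side, Itgam, an integrin of myeloid cells, had 0.176, 0.221 and 0.167 CPM in dasatinib 16x, against 0.456 CPM in DMSO 16x, 0.192 in DMSO 1x, and 0.443 and 0.574 in the parental libraries (log2 change -1.14, adjusted p = 0.09).

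Beside Ndufs6 on chromosome 13, 3 of the 10 nearest tested genes rose and 1, Kcc4 (-3.16, adjusted p = 0.0116), fell in DMSO 16x against parental by edgeR's quasi-likelihood test, where 14.7% of all genes rose and 16.2% fell. Kcc4 had very low levels, with 0.0536 CPM in DMSO 16x, against 0.341 and 0.646 CPM in the parental libraries. Mrpl36, a mitochondrial ribosomal protein and the next tested gene on one side, had 61.4 CPM in DMSO 16x and 56.7 in DMSO 1x, against 49.1 and 50.7 CPM in the parental libraries (DMSO 16x: log2 change 0.3, SE 0.07, adjusted p = 0.00721). Lpcat1, of phospholipid remodelling, and Nsun2, an RNA methyltransferase, were higher as well (0.29, adjusted p = 0.0275, and 0.2, adjusted p = 0.00417). Ndufs6 itself had the larger change, at 0.81. Ndufb7 on chromosome 8 was lower in DMSO 16x than in parental (-0.39, SE 0.07, adjusted p = 0.00173), and so was the next tested gene on one side, Scoc (-0.71, SE 0.1, adjusted p = 0.000152), a Golgi coiled-coil protein. Tecr, next on the other side of Ndufb7, was not called (0.04, adjusted p = 0.622), and of the 10 nearest tested genes Clgn also fell (-1.5, adjusted p = 0.0183) and Rnf150 rose (0.4, adjusted p = 0.0272). Around Cox7a1 on chromosome 7, which rose in DMSO 16x against parental (0.99, adjusted p = 0.0211), 0 of the 10 nearest tested genes rose and 2 fell, Zfp260 (-0.25, adjusted p = 0.0237) and Polr2i (-0.31, adjusted p = 0.038).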
